A study of Homo sapiens with 8 samples.

Results

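Integrins and laminins are the receptors and the matrix proteins through which epithelial cells hold on to the basement membrane. The 37 genes described here, 26 integrin and 11 laminin genes, were chosen by family name. H3K27ac, the histone H3 acetylation that marks active promoters and enhancers, was followed at each of them in peak lists of 6 libraries. Peaks of the 6 lists were merged where they shared at least 1 base, and a merged region was kept when it lay in a member gene or within 20 kb of it (GENCODE on GRCh37/hg19). This gave 177 of 49186 merged regions, near 34 of the 37 genes. ITGA8, LAMA1 and LAMC3 had no region in any library.

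All libraries were made from A549 cells, an established human lung adenocarcinoma line with a KEAP1 mutation and persistently active NRF2. Cells were transfected with control siRNA (3 libraries) or with siRNA against NRF2 (3 libraries) and harvested 48 h later for chromatin immunoprecipitation with an anti-H3K27ac antibody. Replicate 1 of the NRF2 siRNA group received siRNA 28, and replicates 2 and 3 received siRNA 30. The study's methods describe 3 independent experiments, and 2 input samples carried no peak list and were not analysed here.

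Integrins are heterodimers of an alpha and a beta chain. The alpha chain largely sets the ligand, which may be collagen, laminin, an RGD-containing protein such as fibronectin, or a counter-receptor on another cell. Laminins are trimers of an alpha, a beta and a gamma chain, and they form the sheet of the basement membrane that alpha-3/beta-1, alpha-6/beta-1 and alpha-6/beta-4 integrins bind. NRF2 binds DNA with a small MAF protein at the antioxidant response element and recruits histone acetyltransferases. H3K27ac was measured here and expression was not, so an acetylated start is a mark on chromatin and not a transcript level.

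The control lists held 27941, 34747 and 41571 peaks, and the NRF2 siRNA lists 23885, 34986 and 39108, for replicates 1, 2 and 3. Both replicate 1 lists were the shortest of their group, and NRF2 siRNA replicate 1 called only 69 of the 177 member regions against 94 to 140 in the other libraries. Peak names of replicate 1 are in another format than those of replicates 2 and 3, and the sample titles name no run. The only siRNA 28 library is a replicate 1 library, so replicate and siRNA cannot be told apart. The lists give no read counts. The study's reporting summary lists fewer mapped reads for both replicate 1 libraries than for the others, and their lists were the shorter ones, so fold enrichment was not compared between lists. Each region was instead given the percentile of its highest fold enrichment within its own list, where 100 is the strongest peak. The start of NQO1, a well-known NRF2 target, ranked at percentiles 99.3, 99.1 and 99.4 in control siRNA and 95.1, 87.2 and 94.5 in NRF2 siRNA, a score change of -0.94 that just missed the threshold (limma adjusted p = 0.0508). Of the cell type markers, 4 of 6 epithelial genes (KRT7, KRT8, KRT18 and EPCAM) had an acetylated start in all 3 control libraries, against 1 of 5 leukocyte genes (CD14), 0 of 3 endothelial genes and 0 of 4 fibroblast genes.

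Between control and NRF2 siRNA, 9 adhesion regions differed past the threshold, and no region over a member gene's start was among them. H3K27ac ranked lower at 7 regions, which lie in or near ITGA11 (2 regions), ITGAD, ITGB2, ITGB1, ITGAM and ITGA1, and higher at 2 regions, both at the 3′ side of LAMC1. The test was limma on normal scores of the ranks, over the 115 member regions among 32673 regions called in at least 3 libraries, with p-values adjusted over all of them. An intronic ITGA11 region and the ITGB2 region were called in control libraries only. They entered the test through that group, so the filter fixed their direction. The 7 lower regions were 6.09% of the member regions tested, beside 3.39% of all regions, and the 2 higher regions were 1.74% beside 2.01%.

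The stretches below are shown because they carry the antioxidant response element nearest to the centre of the moved region. Such a stretch was found in all 9 regions, and those of the lower ITGA1 and ITGB1 regions, which overlap exons and lack the core described next, are not printed. Each is 60 bases of GRCh37/hg19, 5′ to 3′ on the strand given, with the 10 bases of the element in capitals. The first 4 come from regions that ranked lower and share one core, the fifth from the lower region with the smallest adjusted p, and the last 2 from the regions that ranked higher.
ITGA11 intron, chr15:68644888-68644947, plus strand: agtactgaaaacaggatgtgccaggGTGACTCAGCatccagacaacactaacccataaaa
ITGAD intron, chr16:31415794-31415853, plus strand: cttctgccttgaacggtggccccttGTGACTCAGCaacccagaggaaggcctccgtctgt
ITGAM upstream, intergenic, chr16:31265109-31265168, minus strand: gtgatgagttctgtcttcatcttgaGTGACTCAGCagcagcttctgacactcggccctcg
ITGB2 downstream, in an intron of PTTG1IP, chr21:46286843-46286902, plus strand: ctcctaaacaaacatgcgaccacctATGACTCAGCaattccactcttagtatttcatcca
ITGA11 intron, second region, chr15:68694022-68694081, plus strand: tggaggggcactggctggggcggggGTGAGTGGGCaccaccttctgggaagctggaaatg
LAMC1 intron, chr1:183108989-183109048, minus strand: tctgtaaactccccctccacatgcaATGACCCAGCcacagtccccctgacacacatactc
LAMC1 downstream, intergenic, chr1:183132323-183132382, plus strand: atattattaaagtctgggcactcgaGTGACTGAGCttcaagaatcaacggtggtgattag

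The 4 leading stretches all hold the 9 bases TGACTCAGC, in which the AP-1 site (TGANTCA, bound by FOS and JUN proteins) overlaps the NRF2 element. This exact core, searched on both strands after the stretches had been seen, was present in 4 of the 7 lower regions (57.1%), 0 of the 2 higher regions and 15 of the 106 member regions that did not pass (14.2%). The core was read from the lower regions themselves, so its share among them is no test of enrichment. Over all 32649 regions tested on assembled chromosomes it was present in 10.5%. The looser response element was common everywhere: it was found in 7 of 7 lower regions, 2 of 2 higher regions and 67.9% of the member regions that did not pass, beside 66.9% of all regions. Its density was 0.776 per kb in the lower regions and 0.432 per kb in all regions, while the same letters read backwards gave 0.310 and 0.122 per kb. Among regions within 10% of the length of each core-bearing region, the share with the core was 6.77% for the ITGA11 intron, 7.73% for ITGAD, 6.67% for ITGAM and 7.18% for ITGB2. For the lower regions without the core, that share was 8.90% for ITGA1, 12.8% for the second ITGA11 region and 14.2% for ITGB1. These counts describe letters in the reference genome, and binding of NRF2 was not measured in these libraries.

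Which adhesion genes carried an acetylated start was asked first. A start was scored as acetylated in a library when a peak lay over the first base of a protein-coding transcript of the gene. By that measure 15 of 37 genes (40.5%) were acetylated at a start in all 3 control libraries, beside 7404 of 19834 coding genes (37.3%). Laminins were acetylated at 7 of 11 genes and integrins at 8 of 26. A further 6 integrin genes (ITGA1, ITGA5, ITGA2B, ITGAX, ITGB2 and ITGB8) were acetylated at a start in 1 or 2 control libraries, and 16 genes in none.

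**Figure D1:**
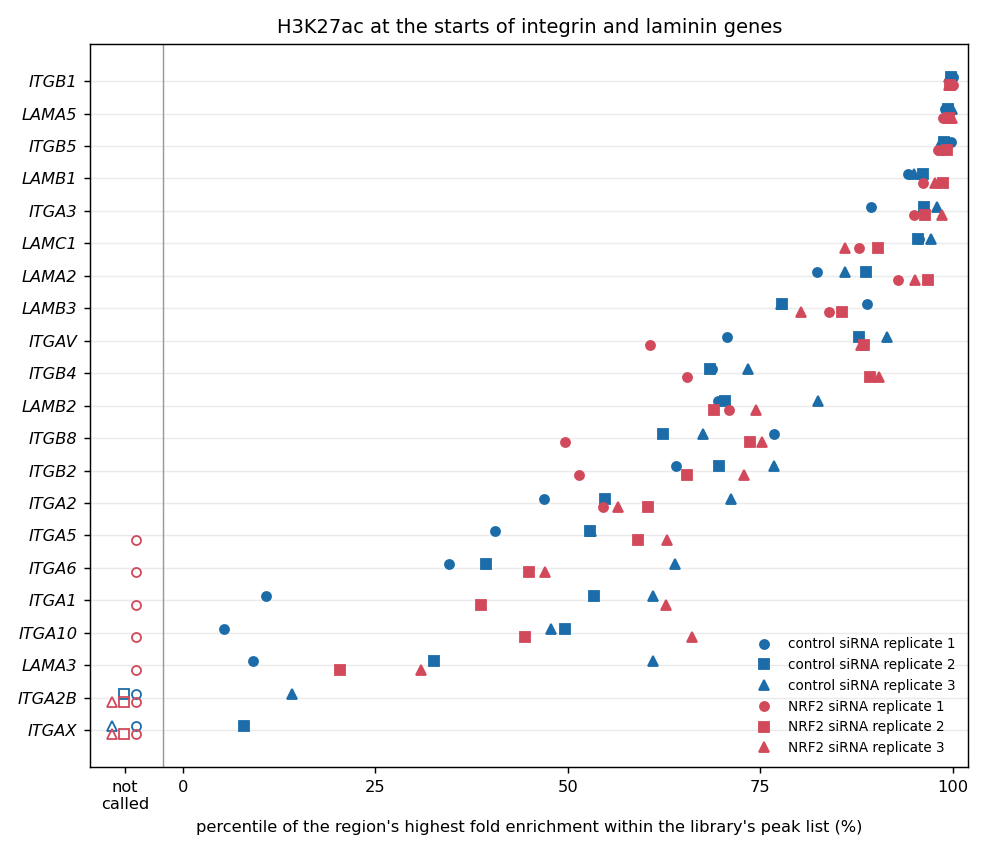
Percentile of the highest fold enrichment within each library's own peak list (x axis, %) for the merged region over a start of each of the 21 genes acetylated at a start in at least 1 control library (rows). Filled points are libraries that called the region, blue for control siRNA and red for NRF2 siRNA, open points at the left are libraries that did not. ITGB1, LAMA5 and ITGB5 lie above 98 in all 6 libraries, and 5 genes are uncalled only in NRF2 siRNA replicate 1.

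Among the collagen-binding alpha chains, the starts of ITGA2 and ITGA10 were acetylated in all 3 control libraries. The ITGA2 start region (chr5:52281386-52286264), for the alpha-2 collagen receptor, ranked at percentiles 46.9, 54.8 and 71.2 in control siRNA and 54.6, 60.4 and 56.5 in NRF2 siRNA. The groups overlapped, and the score changed by 0.03 (SE 0.218). ITGA10 ranked at 5.37, 49.6 and 47.8 in control siRNA, was not called in NRF2 siRNA replicate 1 and ranked at 44.4 and 66.1 in replicates 2 and 3. ITGA1 was acetylated at its start in 2 control and 2 NRF2 siRNA libraries, and PELO, a ribosome rescue factor whose gene shares that start region, cannot be separated from it. ITGA11, the alpha-11 chain best known from fibroblasts, had no peak over a start in any library although it held 2 of the 7 regions that fell.

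Of the laminin-binding alpha chains, ITGA3 and ITGA6 were marked and ITGA7 had no peak over a coding start. All 4 ITGA7 regions were called in all 6 libraries. One of them (chr12:56109301-56110798) lay over the 5′ end of the annotated ITGA7 gene and held the start of BLOC1S1. It ranked at 72.8, 80.5 and 89.1 in control siRNA and 67.6, 49.9 and 75.4 in NRF2 siRNA. The ITGA3 start region (chr17:48122835-48145340) spanned 22506 bp and ranked at 89.4, 96.2 and 97.9 in control siRNA and 95.0, 96.3 and 98.6 in NRF2 siRNA, so the groups overlapped in the top part of every list. The ITGA6 start (chr2:173291937-173293812) ranked lower, at 34.6, 39.4 and 63.9 in control siRNA, was not called in NRF2 siRNA replicate 1, and reached 45.0 and 47.1 in replicates 2 and 3. An intronic ITGA6 region 9612 bp past the start ranked far above that start, at 93.9, 93.3 and 91.3 in control siRNA and 97.0, 98.9 and 98.7 in NRF2 siRNA. All 3 NRF2 siRNA values of this intronic region exceeded all 3 control values, with a score change of 0.70 (SE 0.207) that did not pass (adjusted p = 0.0841).

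Among the RGD-binding alpha chains, ITGAV, partner of several beta chains in vitronectin and latent TGF-beta binding, was acetylated at a start in all 6 libraries. Its start region (chr2:187453676-187456780) ranked at 70.7, 87.8 and 91.5 in control siRNA and 60.7, 88.4 and 88.1 in NRF2 siRNA, with the lowest value of each group in replicate 1. The ITGA5 region (chr12:54812500-54813738), at the fibronectin receptor alpha chain, ranked at 40.6, 52.9 and 53.0 in control siRNA, was not called in NRF2 siRNA replicate 1, and ranked at 59.2 and 62.9 in replicates 2 and 3. The peak of 1 control library in this region stopped short of the ITGA5 start, so the start counted in 2 of 3. ITGA2B, the platelet alpha chain, had 1 short peak in control siRNA replicate 3 alone. ITGA4 and ITGA9 had 1 region each, both intronic.

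The alpha chains of leukocyte integrins lacked an acetylated start: 0 of 5 were marked in all 3 control libraries, and ITGAX alone had a peak there, at percentile 8.01 in control siRNA replicate 2. Other H3K27ac lay in these loci all the same. ITGAL, the LFA-1 alpha chain, had 6 regions, of which the 2 called in all 6 libraries held the starts of its zinc finger neighbours ZNF768 and ZNF747. ITGAD and ITGAM held 2 of the regions that fell and are described further on.

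A beta chain had the highest mean rank of all start regions in control siRNA, although LAMA5 ranked above it in replicate 3. That region of ITGB1, the common partner of most collagen, laminin and fibronectin receptors, ran over 81598 bp (chr10:33224277-33305874). Its percentile was 99.7 ± 0.27 (SD, n = 3) in control siRNA and 99.7 ± 0.279 in NRF2 siRNA, and its score changed by -0.00291 (SE 0.441). These values come from the highest peak of the merged region, which mostly lay upstream of the canonical start. The annotated ITGB1 gene has 19 coding starts and extends upstream of the canonical one, to chr10:33294720. These peaks thus lay in the gene or reached into it. The peak over the canonical start ranked at 97.4, 98.8 and 98.7 in control siRNA and 97.9, 98.3 and 99.5 in NRF2 siRNA. ITGB5, a vitronectin receptor chain, had 18 regions, more than any other member. Its widest start region (chr3:124548729-124566580), over an internal coding start, ranked at 99.7, 98.9 and 98.5 in control siRNA and 98.1, 99.3 and 98.5 in NRF2 siRNA. The region over the canonical ITGB5 start (chr3:124594043-124607172) ranked at 93.0 ± 1.47 and 91.0 ± 1.09 (SD, n = 3 each).

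ITGB4, the hemidesmosome beta chain that pairs with alpha-6, had a start region (chr17:73716108-73720707) at percentiles 68.8, 68.5 and 73.3 in control siRNA and 65.5, 89.3 and 90.4 in NRF2 siRNA. Replicates 2 and 3 of NRF2 siRNA stood above every control library and replicate 1 stood below, and the score change of 0.54 (SE 0.219) did not pass (adjusted p = 0.185). A region of 36879 bp lay 9690 bp upstream of ITGB4, held the start of SAP30BP and stayed between 97.1 and 98.4 in all libraries. ITGB6, the epithelial partner of alpha-v, had no peak over a start, but 2 broad regions lay 2773 and 18792 bp upstream. The nearer ITGB6 region ranked at 96.0, 97.3 and 94.8 in control siRNA and 96.1, 98.7 and 98.5 in NRF2 siRNA, and the farther one at 95.4, 98.2 and 97.6 and at 96.2, 99.4 and 99.0. The starts of ITGB3 and ITGB7 had no peak, and those of ITGB2, the leukocyte beta chain, had peaks in 2 control libraries at alternative starts only. The ITGB2 regions that hold alternative starts lay at chr21:46330905-46333644 and chr21:46345078-46349559. Their nearest edges were 7170 and 4264 bp from the canonical start.

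Laminin chains with a marked start came from all 3 chain types. LAMA5, the alpha chain of the laminins of adult epithelia, had a start region of 24453 bp (chr20:60922728-60947180) at 99.0, 99.4 and 99.9 in control siRNA and 98.7, 99.5 and 99.9 in NRF2 siRNA. LAMB1 had one of 24303 bp (chr7:107634539-107658841) at 94.1, 96.2 and 94.9 in control siRNA and 96.1, 98.7 and 97.7 in NRF2 siRNA. The groups of LAMA5 overlapped, and for LAMB1 a control and an NRF2 siRNA library shared about the same rank, 96.2 and 96.1.

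LAMA3 and LAMB3, chains of the laminin that anchors hemidesmosomes, were both marked at a start. The LAMB3 start region (chr1:209820488-209828473) ranked at 88.8, 77.8 and 77.7 in control siRNA and 84.0, 85.6 and 80.2 in NRF2 siRNA. The LAMA3 start region (chr18:21268795-21270771) ranked at 9.11, 32.7 and 61.0 in control siRNA, was not called in NRF2 siRNA replicate 1 and ranked at 20.5 and 30.9 in replicates 2 and 3. LAMA3 ranked higher inside the gene, at 94.2 ± 0.566 in control siRNA and 82.5 ± 8.51 in NRF2 siRNA (SD, n = 3 each) for an intronic region 26537 bp past the start, a score change of -0.53 that did not pass (adjusted p = 0.139).

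LAMB2 was marked at its start in all 6 libraries, at 74.1 ± 7.21 and 71.4 ± 2.74 (SD, n = 3 each). LAMA2 counted as marked through an internal coding start 605608 bp past its canonical start, which had no peak in any library. LAMA4, LAMB4 and the LAMA1 and LAMC3 genes had no start with a peak.

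No start region moved past the threshold. Of the 21 start regions, 19 could be tested, and 0 passed in limma with adjustment, beside 3.39% lower and 2.01% higher among all regions. An unadjusted p under 0.05 was found at 4 of the 19, beside 22.5% of all regions. The lowest adjusted p was 0.104, for the internal start of LAMA2. Score changes ran from -0.54 at LAMC1 to 0.62 at LAMA2, with a median of -0.00291. The LAMC1 start (chr1:182989802-182994849) ranked at 95.7, 95.4 and 97.2 in control siRNA and at 87.8, 90.3 and 86.1 in NRF2 siRNA. These LAMC1 groups did not overlap, although the test did not pass (SE 0.205, adjusted p = 0.157). Among the 21 regions, 14 were called in all 6 libraries and 5 in all but NRF2 siRNA replicate 1.

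Broad acetylated domains were common near these genes. Of the 177 regions, 13 (7.34%) were at least 10 kb long, beside 3.98% of all merged regions, and the median lengths were 1824 and 1699 bp. Within the ITGB1 start region, peaks covered 56240, 71497 and 79486 bp in control siRNA and 52973, 78257 and 81598 bp in NRF2 siRNA. The shortest cover in both groups was in replicate 1, and the groups overlapped. Over all member genes with 20 kb on each side, which span 5.37 Mb, peaks covered 0.407 ± 0.0845 Mb in control siRNA and 0.404 ± 0.115 Mb in NRF2 siRNA (SD, n = 3 each). The difference was -0.00294 Mb (exact permutation test over libraries, two-sided, p = 1, where 0.1 is the smallest p possible).

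**Figure D2:**
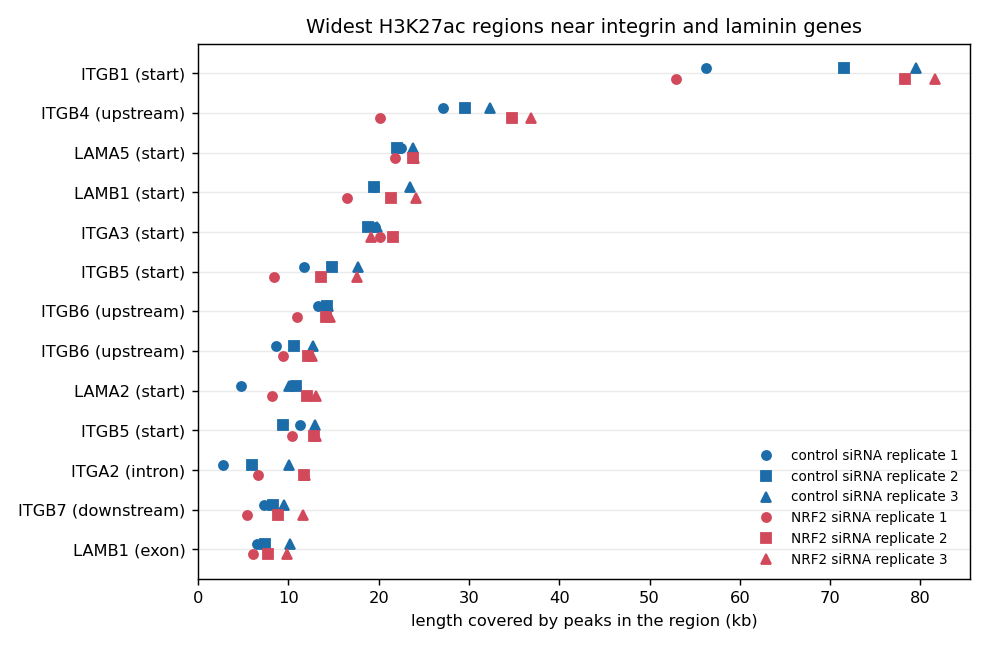
Length covered by peaks (x axis, kb) in each library for the 13 regions of at least 10 kb near integrin and laminin genes (rows, with the position relative to the gene). Blue points are control siRNA and red points NRF2 siRNA libraries, and the ITGB1 start region exceeds 50 kb in all 6 libraries.

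Calls near adhesion genes were shared among libraries about as often as elsewhere. Of the 177 regions, 60 (33.9%) were called in all 6 libraries, beside 34.2% of all regions, and 43 (24.3%) in a single library, beside 21.8%. Of the 22 regions called in 5 libraries, 21 (95.5%) lacked NRF2 siRNA replicate 1, beside 71.7% of 5656 such regions overall. Many of the absences described here are thus in NRF2 siRNA replicate 1, and the part of its short list in them was not tested. By position, 24 regions covered a start of their member gene, 36 another exon, 69 an intron, 24 lay upstream and 24 downstream. A start of another coding gene lay in 26 of the 177 regions, so a region near a member is not always its own.

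The regions that fell lay away from gene starts, and the largest falls were in ITGA11. In the intron of ITGA11 at chr15:68644139-68646231, 78271 bp past the canonical start, H3K27ac ranked at percentiles 42.2, 70.2 and 69.8 in control siRNA and was not called in any NRF2 siRNA library. The score fell by 1.80 (SE 0.304, adjusted p = 0.0155). This region entered the test through the control libraries alone, so its direction was set by the filter and not by the test. The other ITGA11 region (chr15:68691179-68696054), which overlaps an exon 28448 bp past the start, ranked at 95.5, 96.6 and 93.9 in control siRNA and at 43.3, 53.9 and 63.8 in NRF2 siRNA. Every library called it, the groups did not overlap, and the score fell by 1.47 (SE 0.208, adjusted p = 0.00993). Its peaks also covered less, 3602, 3522 and 4876 bp in control siRNA against 843, 2249 and 3227 bp in NRF2 siRNA. The other 2 ITGA11 regions tested did not pass, an intronic one (score change -0.31) and the start of FEM1B downstream (-0.10).

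In ITGAD, the alpha-D chain of leukocytes, an intronic region (chr16:31415222-31416489) ranked at 80.1, 86.9 and 89.0 in control siRNA, was not called in NRF2 siRNA replicate 1 and ranked at 43.6 and 55.7 in replicates 2 and 3. The score fell by 1.41 (SE 0.249, adjusted p = 0.0178). In ITGAM, the alpha chain of complement receptor CR3, a region 5399 bp upstream (chr16:31264413-31265889) ranked at 53.9, 46.9 and 60.2 in control siRNA, was not called in NRF2 siRNA replicate 1 and ranked at 8.18 and 27.1 in replicates 2 and 3. The score fell by 1.00 (SE 0.209, adjusted p = 0.0303). Both regions lie at genes without an acetylated start, and neither is over a start of any coding gene. The leukocyte markers were unmarked but for CD14, as given above.

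The ITGB2 region (chr21:46285909-46287261) lies 18607 bp downstream of ITGB2 and inside PTTG1IP, so its link to the integrin is by distance alone. It ranked at 26.9, 42.9 and 54.1 in control siRNA and was called in no NRF2 siRNA library, and its score fell by 1.32 (SE 0.294, adjusted p = 0.0368). As only control libraries called it, the filter fixed its direction too. With equal list lengths the change was -0.73 and did not pass (adjusted p = 0.0667). The region at the PTTG1IP start next to it ranked at 67.6 ± 4.63 and 68.7 ± 1.72 (SD, n = 3 each), and its change of 0.11 did not pass.

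ITGB1 and ITGA1 encode the chains of the alpha-1/beta-1 collagen receptor, and each had a region that fell. Each also had a region given below whose score rose, by 0.94 at ITGB1 and 1.06 upstream of ITGA1. Those rises passed only with the replicate block. The ITGB1 region (chr10:33217950-33223346) overlaps an exon 23812 bp past the canonical start and borders the wide start domain. It ranked at 54.5, 47.8 and 49.2 in control siRNA, was not called in NRF2 siRNA replicate 1, and ranked at 1.84 and 9.91 in replicates 2 and 3, a fall of the score by 1.13 (SE 0.252, adjusted p = 0.0363). This ITGB1 call was lost with equal list lengths (-0.95, adjusted p = 0.0694) and at a q-value of at most 1e-05 (-0.47, adjusted p = 0.615). In control siRNA replicate 3 and NRF2 siRNA replicate 3, peaks covered 4670 and 5149 bp of it, so the fall was in rank and not in length there. The ITGA1 region (chr5:52095341-52098213), 11591 bp past the start and overlapping PELO, ranked at 95.0, 92.4 and 92.2 in control siRNA and at 61.3, 68.3 and 75.1 in NRF2 siRNA. All 6 libraries called it without overlap of the groups, and the score fell by 0.93 (SE 0.209, adjusted p = 0.0380).

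Both regions that rose lay in or near LAMC1, the gamma-1 chain shared by most laminins, one inside the gene and one linked to it by distance alone. At the 3′ part of the gene (chr1:183107327-183109964), 114772 bp past the start, H3K27ac ranked at 46.6, 48.2 and 52.7 in control siRNA and at 90.0, 86.9 and 86.1 in NRF2 siRNA, a score change of 1.22 (SE 0.227, adjusted p = 0.0218). At 13340 bp downstream of the gene (chr1:183128067-183135229) it ranked at 70.2, 79.9 and 71.2 in control siRNA and at 94.6, 94.6 and 92.3 in NRF2 siRNA, a change of 0.94 (SE 0.226, adjusted p = 0.0471, and 0.0555 with the length-weighted mean fold). In both regions every NRF2 siRNA library stood above every control library, siRNA 28 included, while the LAMC1 start ranked lower in all 3 NRF2 siRNA libraries. The percentile means at the 3′ region were 49.2 ± 3.17 and 87.7 ± 2.09, and downstream 73.8 ± 5.36 and 93.8 ± 1.32 (SD, n = 3 each).

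**Figure D3:**
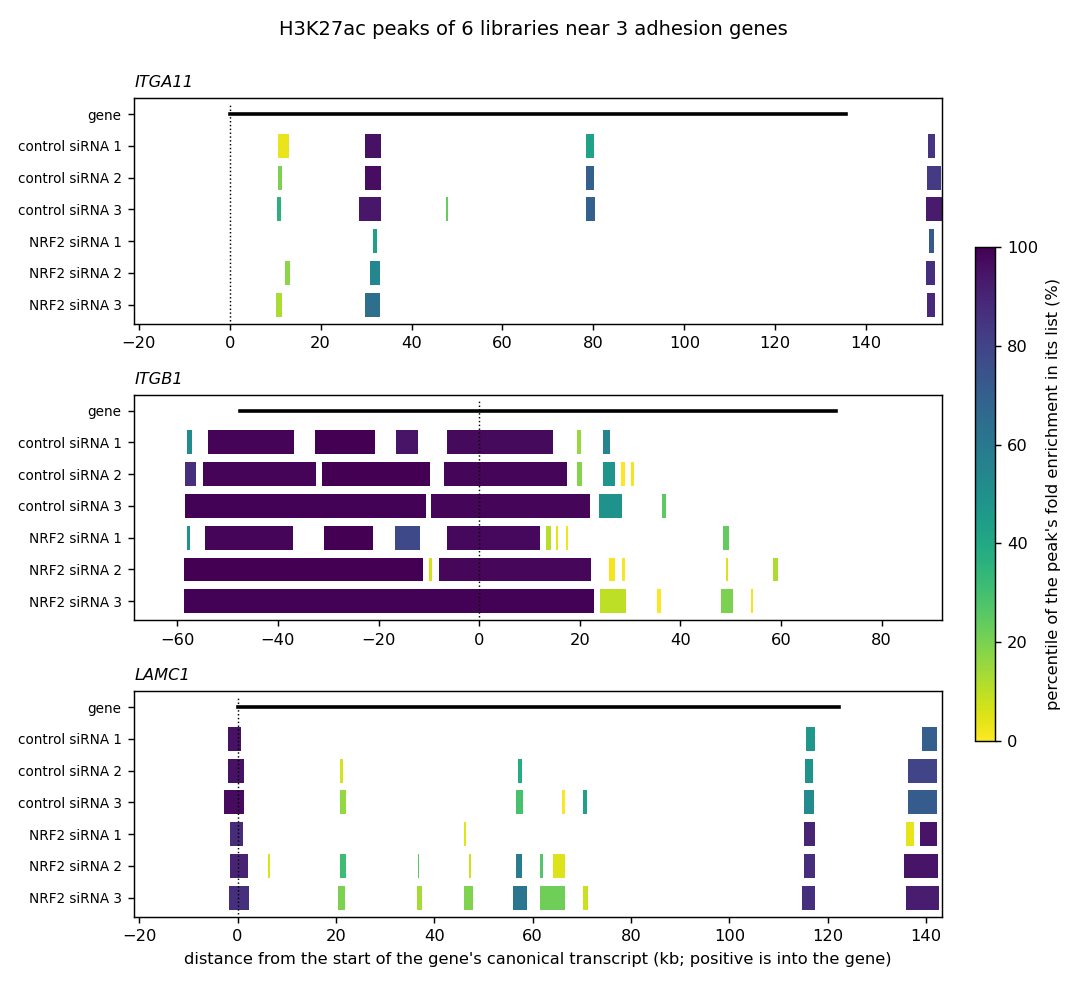
Peaks of each library (rows) around ITGA11, ITGB1 and LAMC1, plotted as distance from the canonical start (x axis, kb, positive into the gene) and coloured by percentile of fold enrichment within the list. The black line is the gene and the dotted line its canonical start. The peak in the second part of ITGA11 is in control siRNA libraries only, and the LAMC1 peaks at the 3′ end of the gene and beyond it are darker in NRF2 siRNA. ITGB1 has broad peaks over its start in all 6 libraries. Its top-ranked peak lies upstream of the canonical start, in the gene or reaching into it, in each library but NRF2 siRNA replicate 3.

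Across the 115 member regions tested, 62 changes were negative and the median change was -0.04, beside 0.02 over all regions. In pairs 1, 2 and 3 the member median was 0.07, 0.03 and -0.04, beside 0.17, 0.02 and 0.00076 over all regions. A tested region called in neither replicate 1 library still scored a rise of 0.251 in pair 1. Uncalled regions share a tied rank, and the score of that rank differs between lists. The part of these ties in the medians and score changes was not tested. At an unadjusted p under 0.05 there were 31 member regions (26.96%), beside 22.5% of all regions. With the replicate number as a block, 10 member regions ranked lower (6.62% of all regions did) and 6 higher (5.72% of all regions), including all 9 regions above. Leaving out control siRNA replicate 2, control siRNA replicate 3 or NRF2 siRNA replicate 2 left 0 of the 115 past the limma threshold, with 19, 17 and 21 at an unadjusted p under 0.05. Over all regions these fits left 0, 0 and 92 past it, against 1765 with all 6 libraries, and the 9 regions kept their direction in every fit that tested them. For the ITGA11 intron and the ITGB2 region, called in control libraries only, that direction was fixed by the filter.

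**Figure D4:**
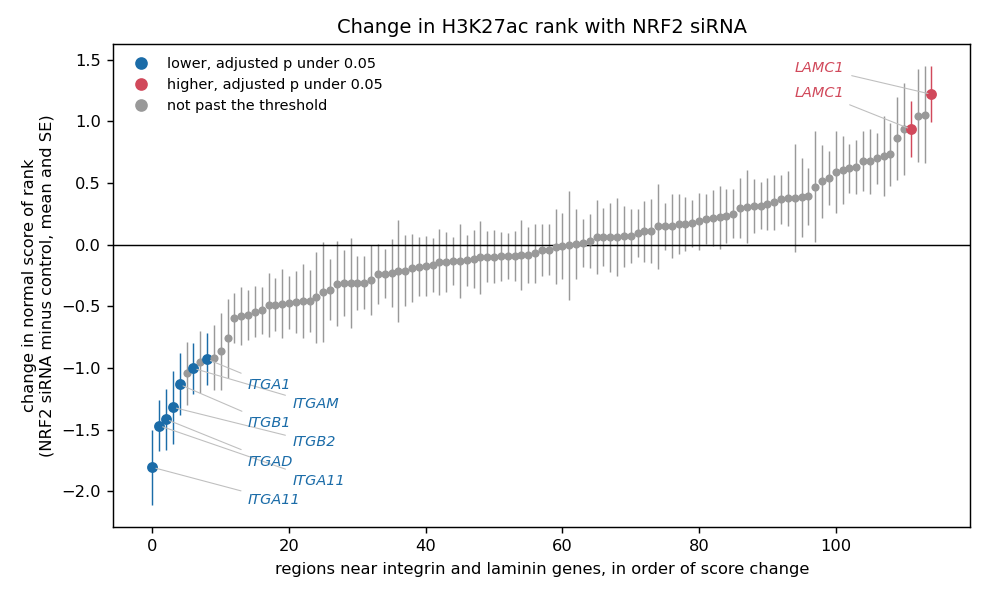
Score change between NRF2 siRNA and control siRNA (y axis, normal score units, mean with SE from limma) for the 115 member regions tested, in order of change (x axis). Blue and red points are the 7 regions that fell and the 2 that rose, and grey points did not pass. Grey points among the blue ones have changes of like size.

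Some regions were present in 1 group alone. Such a region enters the rank test only through that group, with or without the replicate block, so its direction there is fixed. There were 4 member regions called in all 3 control libraries and in no NRF2 siRNA library (2.26%, beside 2.27% of all regions), and 3 of the reverse kind (1.69%, beside 0.83%). The first kind were the ITGA11 intron and the ITGB2 region given above and 2 exonic regions of LAMB4, a beta chain gene with no acetylated start. LAMB4 ranked there at 5.80, 13.3 and 45.6 and at 15.4, 11.4 and 31.4 in the control libraries, and neither region passed the rank test (adjusted p = 0.140 and 0.203). The reverse kind lay in ITGB1, ITGB8 and LAMC1. At ITGB8, the beta-8 chain that binds latent TGF-beta with alpha-v, the region (chr7:20437976-20440425) ranked at 31.5, 5.66 and 27.4 in NRF2 siRNA. At ITGB1 (chr10:33196662-33199121) it ranked at 23.8, 5.60 and 19.9, and at LAMC1 (chr1:183038538-183040444) at 4.47, 7.49 and 19.3.

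These 3 regions and one 3121 bp upstream of ITGA1 were among the largest rises or one-sided calls, with score changes of 1.06 at ITGA1, 1.05 at ITGB8, 0.94 at ITGB1 and 0.86 at LAMC1. None passed the threshold without the block (adjusted p = 0.152, 0.137, 0.177 and 0.167), and all 4 passed with the replicate block (adjusted p = 0.0150, 0.0212, 0.0239 and 0.0257, in the same order). The ITGA1 upstream region ranked at 1.34 and 1.97 in control siRNA replicates 1 and 3, was not called in replicate 2, and ranked at 45.9, 16.4 and 41.9 in NRF2 siRNA.

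Genes that work with these receptors were taken as a comparison. Of 20 genes for the linkers between integrins and actin, such as talins and vinculin, 16 had a start acetylated in all 3 control libraries, beside 37.3% of coding genes. Of 89 linker regions tested, 2 fell (2.25%, beside 3.39% of all regions) and 0 rose (beside 2.01%) in limma with adjustment. An unadjusted p under 0.05 was found at 19 (21.3%, beside 22.5% of all regions), and the median change was 0.05. With the replicate block, 4 linker regions passed as lower (6.62% of all regions did) and 3 as higher (5.72% of all regions). The 2 that fell without the block were an exonic region of VCL, the vinculin gene (score change -1.57, adjusted p = 0.0123), and an intronic region of PARVB, the beta-parvin gene (-1.58, adjusted p = 0.0129). Of 15 other basement membrane genes, 6 had such a start, beside the same 37.3%. Of their 49 regions tested, 1 fell (2.04%, beside 3.39% of all regions), in an exon of the collagen IV chain gene COL4A2 (-1.48, adjusted p = 0.0209). Another 2 rose (4.08%, beside 2.01% of all regions). They lay in an exon of the perlecan gene HSPG2 (1.52, adjusted p = 0.0278) and 6501 bp upstream of the hemidesmosomal collagen gene COL17A1 (1.45, adjusted p = 0.0289). COL17A1 ranked there at 3.28, 42.6 and 24.3 in control siRNA and 84.1, 81.6 and 70.9 in NRF2 siRNA, so the groups did not overlap. With the replicate block, 3 basement membrane regions passed as lower and 4 as higher, beside the same 6.62% and 5.72% of all regions. The HSPG2 region was called in NRF2 siRNA libraries only, so the filter fixed its direction.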

How the data were processed

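A549 chromatin immunoprecipitated for H3K27ac was compared between 3 control siRNA and 3 NRF2 siRNA libraries, grouped by their labels. Per the study's methods and processing notes, the authors used Bowtie2 version 2.2.6 (hg19), a mapping quality filter in SAMtools, MACS2 version 2.1.0.20151222 on each library and the ENCODE blacklist. The deposited broad peak lists give an integer score, a fold enrichment (a ratio to background) and p-values and q-values as −log10 by the authors' peak caller. Whether an input library was the background is not given in the sources used here. The lists hold no counts, so the precision behind a peak cannot be given, and the study's reporting summary gives fewer mapped reads for both replicate 1 libraries.

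Peaks of the 6 lists were merged where they shared 1 base. Regions called in at least 3 of 6 libraries were ranked within each list by their highest fold. A region without a peak in a library shared the lowest rank there, ranks became normal scores, and scores were compared with limma 3.58.1 in R 4.3.3 (lmFit and eBayes, two-sided, Benjamini-Hochberg adjustment over 32673 regions, threshold 0.05). Covered length was compared by exact permutation. Simulated scores with known shifts were used to test the limma step. Genes, exons and starts came from GENCODE 44 lifted to GRCh37, whose chromosome names and lengths matched the lists. Other steps used Python 3.11.15, numpy 2.4.6 and scipy 1.17.1.

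Named regions were those past the threshold, the 5 largest falls and rises, regions called in 1 group only, and the start region of each gene (the best-ranked where there were several). Member genes, gene lists and tests were chosen with earlier results of these data known. The response element was searched on both strands by its usual degenerate letters. Replicate numbers in the titles were taken to pair the libraries. Deviations from the group means correlated at 0.398, 0.199 and 0.363 within same-numbered pairs. Between libraries of unlike number the correlations ran from -0.383 to 0.107. The fit without the block stayed the one reported, with the block beside it where it moved a count. Alternatives were equal list lengths (23885 peaks), a q-value of at most 1e-05, other region filters, windows of 5 and 100 kb, other definitions of a call or start, a length-weighted mean fold, other eBayes options, and leaving out each library. An siRNA acts on mRNA, so the mark at the targeted gene would not check the knockdown and was not used.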

Additional observations from a re-analysis of the deposited data

How the results depend on the processing

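Ranks take no account of depth, 3 libraries per group limit the test, and calls depend on the spread it estimates. Of the 15 named regions, 0 changed sign under any setting, but 44 of their alternative values lost the threshold and 5 gained it. For the named regions called in 1 group only, the sign was fixed by their calls. The count of lower member regions (7) was 11 with equal list lengths and the replicate block, 3 at a q-value of at most 1e-05, 2 among regions called in all 6 libraries and 4 among regions called in at least 1. Leaving out single libraries gave 0 to 9: 9 without NRF2 siRNA replicate 1, 2 without NRF2 siRNA replicate 3, 1 without control siRNA replicate 1, and 0 without either of control siRNA replicates 2 and 3 or without NRF2 siRNA replicate 2. Over all regions, calls in both directions moved with them: 1765 with all libraries, 2338, 484, 422, 0, 0 and 92 in those 6 fits, 714 at the stricter q-value and 710 among regions called in all 6 libraries. The same count was 4032 with the replicate block and 4190 with the block and equal list lengths. It was 2505 with equal list lengths, 2674 with the trend and robust options and 1552 among regions called in at least 1 library. The count of higher regions (2) was 6 with the replicate block, with or without equal list lengths, 1 among regions called in at least 1 library, 5 with the trend and robust options, 1 within 5 kb and 4 within 100 kb, and 0 to 1 without single libraries. The median member change (-0.04) was 0.0555 at the stricter q-value, 0.0502 among regions called in all 6 libraries, and -0.0556 to 0.0129 without single libraries, above 0 only without NRF2 siRNA replicate 2.

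Regions called only in control siRNA (4) numbered 1 at the stricter q-value and 8 where peaks had to cover 50% of a region, and 4 to 8 without single libraries (8 without control siRNA replicate 1, 7 without NRF2 siRNA replicate 3). Those called only in NRF2 siRNA (3) numbered 0 with equal list lengths, at the stricter q-value and at 50% cover, and 3 to 11 without single libraries (11 without NRF2 siRNA replicate 1, 5 without NRF2 siRNA replicate 2). Shares of such calls over all regions are not given for these settings, so nothing particular to the members can be read from them. The difference in covered length turned to 0.0410 Mb without control siRNA replicate 3 (exact permutation p = 0.8) and to 0.0597 Mb without NRF2 siRNA replicate 1 (exact p = 0.4), within a range of -0.0533 to 0.0597 Mb, and the replicate block left it at -0.00294 Mb (exact p = 1). Genes with an acetylated start (15) ranged from 11 to 19 under all settings.

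For linker genes, lower regions (2) were 4 with the replicate block, 0 among regions called in all 6 libraries and 0 to 3 without single libraries (0 without control siRNA replicate 2 or 3). Higher linker regions (0) were 3 with the replicate block or equal list lengths, 5 with both, 1 with the length-weighted fold, 2 with the trend and robust options, and 0 without any single library. For basement membrane genes, lower regions (1) were 3 with the replicate block, alone or with equal list lengths, 0 at the stricter q-value and among regions called in all 6 libraries, and 0 to 1 without single libraries (1 only without NRF2 siRNA replicate 1). Higher regions (2) were 4 with the replicate block, 1 with equal list lengths, at the stricter q-value and among regions called in all 6 libraries, and 0 to 1 without single libraries (1 without control siRNA replicate 1 or NRF2 siRNA replicate 3). The counts over all regions given above for the same settings apply to these lists too. With the length-weighted fold, 1804 of all regions passed in both directions together. The cause of these shifts was not tested.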
